A study of Homo sapiens and Mus musculus with 16 samples.

Results

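The strongest open chromatin regions that lie away from gene starts and are shared by a mouse pancreatic tumor cell line and its matched liver metastasis (mets) cell line were examined. They numbered 4229 of the 68074 regions of the KPC primary tumor list, and of 364071 regions in the 4 lists of the series. A region was a member when its score was at or above the 90th percentile of the primary tumor list, when it overlapped a region of the mets list by 1 bp or more, when it was narrower than 1500 bp and when it lay more than 1 kb from every annotated start site. Of the 6815 regions at or above that percentile, 4 did not overlap a mets region, 2543 lay at promoters and 39 were left out for their width. The members were therefore chosen by score, overlap, width and distance, and values of these are given as a description only. Member scores ran from 937 to 2301 with a median of 1080. The 5 members just inside the threshold, taken in the order of their names in the list, scored 937, and their mets percentiles ran from 63.3 near Ptger4 to 95.4 near Cdkal1. The 5 regions just outside scored 936, and the mets percentile was 89.6 near Snrpd2, 89.7 near Neo1, 90.9 near Arhgap18 and 94.1 near Dnah2.

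Open chromatin was mapped by the assay for transposase-accessible chromatin with sequencing (ATAC-seq) in 16 samples, 4 in each of 4 groups. The KPC lines came from a genetically engineered mouse model of pancreatic cancer, 1 line from a primary tumor and 1 from matched liver mets, both untreated, with genotype given as WT in the labels. The HPAF-II lines are human pancreatic cancer cells, given as the control (Cas9) and as cells without the nuclear receptor HNF4G (HNF4G-KO), and were used here only to set the same rule beside the mouse one. Each group has 1 region list, so no value per replicate exists, the number of reads behind a score is unknown, and no test between the cell lines could be made. Each KPC group is 1 cell line, so the line and the site it came from cannot be told apart.

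Distal regions of open chromatin are often enhancers, stretches of DNA at which transcription factors gather and act on genes that can lie far away. Nucleosomes cover most of the genome, and a transposase inserts mainly where bound factors keep the DNA free. AP-1, a dimer of Fos and Jun family proteins that is switched on by growth factor and RAS signaling, binds TGACTCA and is a frequent occupant of enhancers in epithelial and tumor cells. CTCF, by contrast, holds the anchors of chromatin loops and binds many sites that are neither promoters nor enhancers.

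The sequences that carry the main result are shown first. Each is a stretch of a member from the mouse reference (mm10, plus strand, 5′ to 3′), with every match to the 15 consensus sequences searched in capitals, on either strand. The first 4 belong to the highest-scoring member with the AP-1 (and FOXA), CTCF, TEAD and HNF4 consensus, the next was the highest-scoring member with 3 AP-1 sites, the Dusp6 stretch comes from a gene of the RAS-ERK list, and the last was picked after its values were seen because it held 6 AP-1 sites, the most in any member printed here. AP-1 appears as TGACTCA or, on the other strand, TGAGTCA.
Clca3b, chr3:144886952-144887140: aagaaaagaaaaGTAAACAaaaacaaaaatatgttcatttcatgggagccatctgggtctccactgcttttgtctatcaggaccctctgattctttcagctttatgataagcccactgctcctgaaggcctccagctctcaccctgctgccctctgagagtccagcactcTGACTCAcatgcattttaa
Card19, chr13:49205628-49205890: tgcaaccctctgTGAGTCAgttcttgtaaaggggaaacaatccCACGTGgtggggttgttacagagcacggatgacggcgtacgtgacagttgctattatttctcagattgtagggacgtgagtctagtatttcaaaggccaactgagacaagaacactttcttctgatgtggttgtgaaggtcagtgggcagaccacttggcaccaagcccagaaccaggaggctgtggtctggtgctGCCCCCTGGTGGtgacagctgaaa
1700001O22Rik, chr2:30743352-30743420: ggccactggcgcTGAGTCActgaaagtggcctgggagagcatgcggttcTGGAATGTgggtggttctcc
Rap1gds1, chr3:139037197-139037296: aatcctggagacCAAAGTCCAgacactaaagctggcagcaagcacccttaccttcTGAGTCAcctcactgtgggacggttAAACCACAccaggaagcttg
Lclat1, chr17:73263115-73263346: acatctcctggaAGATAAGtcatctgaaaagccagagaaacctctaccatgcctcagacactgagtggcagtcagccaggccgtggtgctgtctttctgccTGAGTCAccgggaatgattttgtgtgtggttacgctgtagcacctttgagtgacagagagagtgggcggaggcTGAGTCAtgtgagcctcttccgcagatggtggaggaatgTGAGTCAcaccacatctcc
Dusp6, chr10:99309060-99309090: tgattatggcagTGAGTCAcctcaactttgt
Usp7, chr16:8810792-8811022: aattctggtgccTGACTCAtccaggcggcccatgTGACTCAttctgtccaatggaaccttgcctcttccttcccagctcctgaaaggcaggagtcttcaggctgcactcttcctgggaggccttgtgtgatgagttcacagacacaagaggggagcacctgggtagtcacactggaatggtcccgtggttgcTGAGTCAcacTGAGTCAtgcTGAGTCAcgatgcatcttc
The Clca3b member paired an AP-1 site with a FOXA match (GTAAACA on this strand), 151 bases apart. In the Card19 member the CTCF match stood 190 bases from the nearest other match shown, and AP-1 and E-box (CACGTG) matches stood 24 bases apart. The 1700001O22Rik member held AP-1 and TEAD (TGGAATGT on this strand) 30 bases apart. The Rap1gds1 member held HNF4 (CAAAGTCCA), AP-1 and RUNX (AAACCACA on this strand) within 100 bases. The Usp7 member held 6 AP-1 sites, of which 5 are shown and 3 stood only 3 bases from one another.

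More than 6 in 10 members carried the AP-1 consensus, and fewer than 1 in 100 carried the CTCF consensus. The CTCF consensus has 12 bases and that of AP-1 has 7, so their shares cannot be set against each other. Sites that depart from a consensus were not counted, so a region without a match can still hold a site. In a window of 400 bp at the region center, TGACTCA was found on either strand of 2578 of the 4229 members, or 61.0% (95% Wilson interval 59.5 to 62.4, which like every interval here covers counting error only). It was found in 39.3% (38.8 to 39.7) of the 39939 shared distal regions below the top 10%, in 356 (12.7 to 15.4%) of the 2543 shared promoter regions of the top 10% and in 33.4% of all 68074 regions. Written backwards, which keeps the base composition, the sequence was found in 13.7% of members and in 10.1% of the lower distal regions. An AP-1 core followed by GT holds the backwards sequence ACTCAGT whole, so the backwards count is not independent of AP-1. Members with 2 or more AP-1 sites made up 15.9%, against 5.87% of the lower distal regions and 2.67% of promoters. The members were wider than the lower distal regions, with median widths of 793 and 458 bp, so the share was also taken over regions 600 to 900 bp wide. There it was 63.9% (61.9 to 65.8) in 2277 members and 43.4% (42.4 to 44.5) in 8482 lower regions.

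**Figure D1:**
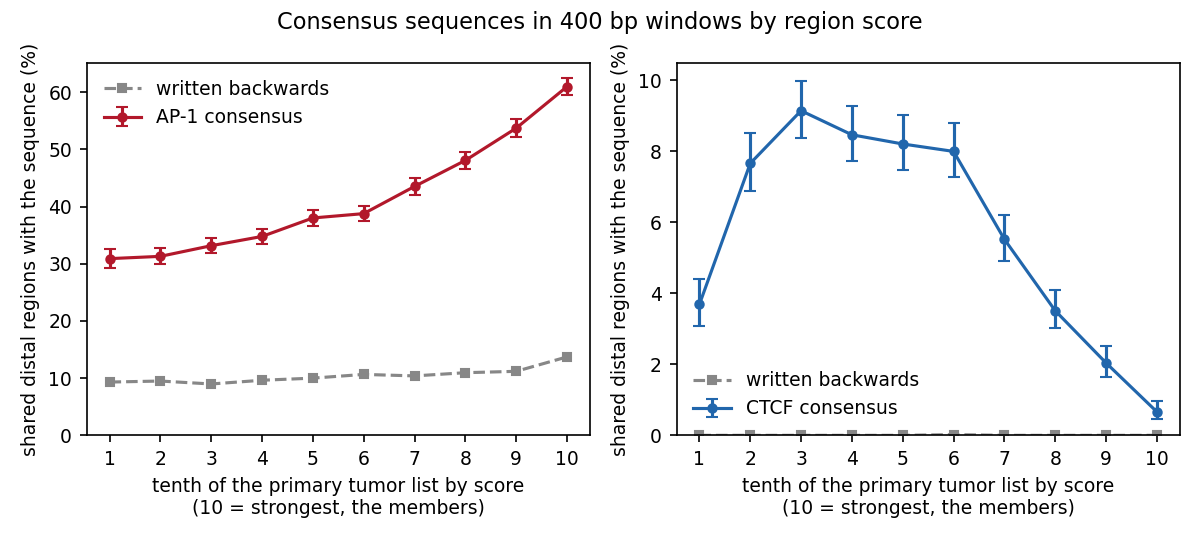
Share (%) of shared distal regions narrower than 1500 bp with the AP-1 (left) and CTCF (right) consensus in a 400 bp window, by decile of the primary tumor list from weakest (1) to strongest (10, the members), with 95% Wilson intervals. AP-1 climbs from 30.9% to 61.0%, while CTCF starts at 3.69%, peaks at 9.14% in the third decile and ends at 0.662%.

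The AP-1 share followed the score through the whole list. It was 30.9% in the weakest decile of shared distal regions, 38.0% in the fifth, 53.7% in the ninth and 61.0% in the members, and the backwards sequence moved from 9.31% to 13.7% over the same deciles. CTCF rose over the weakest deciles and then fell. Its consensus was found in 28 members, or 0.662% (0.458 to 0.955), against 6.45% (6.21 to 6.69) of the lower distal regions, and in 0 members when written backwards. The share was 3.69% in the weakest decile, 9.14% in the third, where it was highest, and 2.04% in the ninth. Among regions 600 to 900 bp wide the CTCF shares were 0.659% in members and 3.27% in lower distal regions. Of the 28 CTCF members, 10 also held AP-1 in the window.

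AP-1 sites stood close to the middle of the members. Within 50 bp of the center there were 2.98 sites per 1000 members and bp, against 0.148 beyond 500 bp, a ratio of 20.1. The lower distal regions had 1.98 and 0.196, a ratio of 10.1, and the backwards sequence in the members had a ratio of 2.42. Among AP-1 sites within 200 bp of the center, the median distance from it was 69.5 bp in members and 60.5 bp in lower distal regions. The higher ratio of the members therefore does not mean that their sites stood closer to the center. The backwards ratio can include AP-1 cores followed by GT, whose part was not counted. The ratios of RUNX, TEAD and FOXA in the members were 3.51, 3.03 and 1.97, that of FOXA being below the backwards AP-1 sequence. In the lower distal regions they were 2.89, 2.68 and 1.81. The CTCF consensus, with 7 sites within 50 bp over all members, had a ratio of 2.59 in the members and of 50.7 in the lower distal regions.

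The bases next to the AP-1 core also differed from those at cores nearby. Among 3330 cores in the member windows, read as TGACTCA, a T stood just before the core in 7.81% and an A just after it in 9.43%. At 2848 cores found 1 to 3 kb from the member centers these shares were 19.4% and 23.9%. A purine before together with a pyrimidine after was found in 36.1% (34.5 to 37.7) of member cores and 20.2% (18.8 to 21.7) of the distant ones. The lower distal regions, with 37.3%, were close to the members here.

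Near matches to the core were common in members and elsewhere. Of the 1651 members with no AP-1 core in the window, 350 had it elsewhere in the region. All 19 sequences that differ from the core by a single base were then searched in these 1651 windows. At least 1 of them was found in 86.6% (84.8 to 88.1) of these, in 79.2% of the lower distal windows without a core and in 71.4% of coreless windows 2 kb upstream of the members. TGACTAA was found in 24.8% of them (22.8 to 27.0), against 14.6% of the lower distal and 5.34% of the upstream windows. TGAATCA was found in 21.7%, 13.5% and 5.01%, and TTACTCA in 280 of the 1651, 9.91% and 4.89%. TGACACA was found in 17.6%, 11.9% and 8.21%, and TGACGCA in 2.36%, 1.36% and 0.709%. TGGCTCA was found in 203 of the 1651 members, 3041 of the 24262 lower regions and 474 of the 3949 windows upstream, shares that differed by less than 1 percentage point. The first 3 were named after the values were seen because they differed most from the upstream windows, and a match is not a measured binding site.

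**Figure D2:**
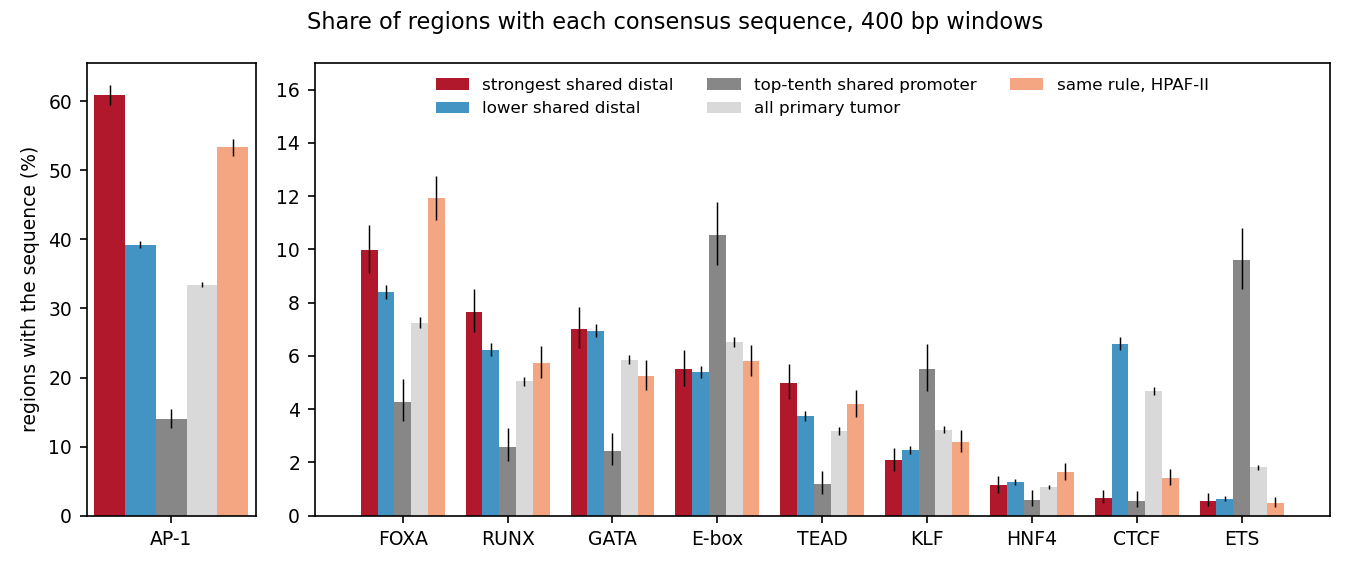
Share (%) of regions with each consensus sequence in a 400 bp window at the center, for the members, the lower shared distal regions, the shared promoter regions of the top 10%, all primary tumor regions and the same rule applied to the HPAF-II lists, with 95% Wilson intervals; AP-1 has its own axis. Members lead the mouse groups in AP-1, FOXA, RUNX and TEAD, and promoters lead in E-box, KLF and ETS.

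The other consensus sequences were less common than AP-1, and their shares lay closer together between distal groups. The FOXA sequence TGTTTAC, bound by pioneer factors of the endoderm, was found in 9.98% (9.11 to 10.9) of members and 8.39% (8.12 to 8.67) of lower distal regions, but the backwards sequence reached 10.2% of members. The RUNX sequence TGTGGTTT was found in 7.66% (6.90 to 8.50) and 6.23% (5.99 to 6.47), with 93 members holding it backwards. The TEAD sequence ACATTCCA, through which the YAP growth pathway acts, was found in 4.99% (4.37 to 5.69) and 3.76% (3.57 to 3.95). The GATA sequence AGATAAG stood at 7.02% and 6.95%, and the HNF4 sequence CAAAGTCCA at 1.14% and 1.27%, so that the intervals of both pairs overlapped. The ETS sequence CCGGAAGT was found in 0.568% of members and in 9.59% of the equally strong promoters, and the KLF sequences GGGCGTGGC and GGGTGTGGC in 2.08% and 5.51%. The remaining CREB (TGACGTCA), CEBP (TTGCGCAA), GRHL (AACCGGTT), HNF1 and NFI consensus sequences were each found in under 1% of members, and the E-box in 5.51%. No sequence of the set contains another whole, although AP-1 and CREB both begin with TGAC.

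RUNX, TEAD and FOXA were at slightly lower shares in members with AP-1 than in those without. RUNX was found in 181 of the 2578 members with AP-1 (7.02%) and 143 of the 1651 without (8.66%), TEAD in 4.54% and 5.69%, and FOXA in 9.43% and 10.8%, with overlapping intervals. None of the 15 sequences was present in the window of 1040 members, or 24.6%. Where a member held several AP-1 cores, the 770 neighboring pairs lay a median of 70 bp apart from start to start, and 160 pairs lay at 30 bp or less.

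The distance from start sites was fixed by the rule for members, lower distal regions and promoters alike, so their placement is given as a description. The members' median GC content was 47.0%, against 46.8% in lower distal regions and 61.3% at promoters, and 1.91% of them reached a CpG ratio of 0.6 (observed over expected, as in CpG islands), against 2.38% and 70.4%. Introns held 51.9% of member centers, intergenic DNA 44.6% and exons 3.48%, against 50.5%, 45.0% and 4.43% of the lower distal regions. The median distance to the nearest start site was 13226 bp and the longest 455451 bp. From 1355 members, or 32.0%, the nearest protein-coding start site was over 50 kb away.

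The question of how these regions stood in the liver mets line was addressed with the mets list, whose scores the rule did not use. Each member was paired with the mets region that it overlapped most, its partner, and scores were compared only as percentiles of their own list. The partner was in the top 10% of the mets list for 3350 members, or 79.2% (78.0 to 80.4), against 12.9% of all shared regions, 3.98% of the lower distal regions and 87.8% (86.5 to 89.0) of the promoters of the top 10%. The median member stood at percentile 95.04 in the tumor list and 95.05 in the mets list, and 20 members had a partner below the 50th percentile. The reverse rule, started from the mets list, took 4968 regions, and 68.2% (66.8 to 69.4) of their tumor partners were in the top 10%. The same rule in HPAF-II took 6026 regions of the control (Cas9) list, with 65.7% (64.5 to 66.9) of the HNF4G-KO partners in the top 10%. Members were wider than their partner in 3495 cases, or 82.6%, with median widths of 793 and 702 bp.

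Members with AP-1 kept a place in the mets top 10% somewhat more often than those without. The share was 81.5% (80.0 to 83.0) in the 2578 with AP-1 and 75.6% (73.5 to 77.6) in the 1651 without, and it stood at 80.4% for 1 site, 84.6% for 2 and 85.1% for 3. The tumor score rose along with it, from a median of 1069 without a site to 1149 with 3, and its part in this was not tested. It was 85.5% (81.2 to 88.9) in the 324 members with RUNX, 79.9% in the 422 with FOXA, 83.3% (70.4 to 91.3) in the 48 with HNF4 and 77.7% in the 211 with TEAD. The RUNX interval lay above that of all members and the interval of members without AP-1 below it, while the others overlapped it.

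Of the 10 highest-scoring members, 8 held no AP-1 core in the window, the exceptions being those near Clca3b, a chloride channel regulator, and Lclat1, an acyltransferase of cardiolipin remodeling. The top member, chr3:5860273-5860887 near Gm8797, scored 2301 in the tumor and 2251 in the mets list, the highest score of both. The next, chr5:146260914-146261430, lay in an intron and 3121 bp from a start site of Cdk8, which encodes a kinase of the Mediator complex, and scored 2053 and 2233. It was followed by members whose nearest protein-coding gene was the cell adhesion gene Chl1 (1979 and 1956), the Wnt feedback gene Axin2 (1922 and 1951), the mitochondrial RNA gene Rpusd4 (1893 and 2123) and Filip1l (1774 and 2017). The remaining members of these 10 were those of Clca3b (1729 and 1422), 1520401A03Rik (1723 and 1704), Lclat1 (1720 and 1599) and Satl1 (1685 and 1584). The nearest protein-coding start site lay from 3121 bp (Cdk8) to 109467 bp (Gm8797) from these 10 members. Another place in the genome matched 200 bp or more at 90% identity for 4 of the 10, those near Gm8797, Chl1, Filip1l and Satl1, against 78 of all members, or 1.84%. The Rpusd4 member was soft-masked as repeat over 81.0% of its length. Reads from such copies cannot be told apart in a score, and no member matched the mitochondrial genome. Of the 10 highest-scoring members with no such copy, 6 held AP-1 in the window, near Clca3b, Lclat1, Slc2a3, Myh11, Dkk2 and Btbd3, beside 61.0% of all members. This second set was drawn after the values were seen. No list of known artifact regions was applied here to the members.

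The members that moved furthest upward in mets did so by less than 9 percentile points, since they started in the top 10%. These members are named by the nearest protein-coding gene, which can be far away. The 5 largest rises were those named by Otol1 (90.6 to 99.2), Gdap2 (90.7 to 98.9), Kif2a (90.2 to 98.4), Naaladl2 (91.5 to 99.3) and Sav1 (91.1 to 99.0), a scaffold of the Hippo pathway. Their start sites lay 306651, 132643, 463389, 178434 and 11194 bp away. All 5 held a single AP-1 core, beside 45.1% of all members with exactly 1 and 61.0% with 1 or more. The 5 largest falls went much further. They were those named by Mme (91.8 to 14.4), which encodes the surface protease neprilysin, Chchd3 (94.2 to 19.3), a mitochondrial cristae gene, Anxa1 (91.9 to 22.4), Mb21d2 (90.4 to 22.4) and Arhgap6 (93.1 to 26.2), at 42296, 78639, 614547, 34086 and 15782 bp. The latter 3 held a single AP-1 core and the former pair none. With 1 list per line, no replicate check of these single regions exists.

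In all, 4227 of 21951 protein-coding genes, or 19.3%, had a member within 50 kb of a start site, and 59 had 4 or more. The most was 7, at Pde4d, a cAMP phosphodiesterase, at Frmd4a, a cell polarity scaffold, and at Nedd4l, a ubiquitin ligase. Of the Pde4d members 4 held AP-1 and 6 had a mets partner in the top 10%, with mets percentiles from 82.8 to 99.9. The Nedd4l members were more spread, from 52.0 to 97.7, with 4 in the mets top 10%. Nedd4l lies on chromosome 18, where 69.3% of members had a partner in the mets top 10%, against 79.2% of all members. Foxp1, a forkhead factor, and Sgms1, a sphingomyelin synthase, had 6 each. The 5 other genes at the head of the order had 5 members each and were Map2k6, a kinase upstream of p38, Ank3, which encodes ankyrin-G, Myof, a membrane repair protein, and the actin-associated Ablim1 and Sorbs2. All 5 mets partners at Ank3 were in the top 10%, and 2 of the 5 at Myof. Long genes with many start sites cover more sequence and can hold more members for that reason.

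A gene with more open regions nearby has more chances to hold a member, so the share of members among all regions within 50 kb is also given, beside 3.90% over all protein-coding genes. All regions here include promoters and regions not shared with mets, which could not be members. The share therefore also depends on how many of those lie near a gene. For TEAD-YAP genes it was 10.1%, for RAS-ERK 6.77%, for EGF 3.36%, for RUNX, KLF and ETS 5.11%, and for AP-1 subunits 2.21%. Endothelial markers, at 7.69%, and pancreatic cancer drivers, at 7.32%, stood above RAS-ERK. Neuron, leukocyte, hepatocyte, fibroblast and acinar markers ran from 1.41% (neuron) to 3.57% (acinar). Of 15 TEAD-YAP pathway genes 8 had a member, or 53.3% (30.1 to 75.2), with 17 members in all. Vgll4, a partner of TEAD that opposes YAP, had 4 members at percentiles from 93.2 to 98.9, and their mets percentiles ran from 63.8 to 99.2. Ccn1 and Ccn2, matrix proteins that YAP switches on, had 3 and 2, and Tead1 had 3, all of them in the mets top 10%. Yap1 and its relative Wwtr1 had 0. Of 13 RAS-ERK feedback genes 7 had a member, or 53.8% (29.1 to 76.8). The ERK phosphatases Dusp6 (tumor percentile 99.4, mets 98.4), Dusp5 (98.3 and 97.0) and Dusp4 (2 members, mets 86.4 and 95.9) were among them, with Spred2 (98.8 and 98.1) and Phlda1 (2 members). Errfi1 and Spry1 made up the 7, and 6 of these had AP-1 in at least 1 member, Spry1 being the exception. AP-1 was held by 61.0% of all members. Among 11 EGF receptors and ligands 3 had members, namely Tgfa with 2, and Egfr and Nrg1 with 1.

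Transcription factor genes gave a mixed picture. Of 15 RUNX, KLF and ETS genes 8 had a member (53.3%), led by Klf6 with 2 and then by Elk3, Klf10 and Runx1. Of 10 AP-1 subunits 3 did, namely Fosl2, Jund and Atf3 with 1 each. Of 21 pancreas and endoderm factors 5 did, or 23.8% (10.6 to 45.1), near the background of 19.3%. Gata6, which marks the classical subtype of pancreatic cancer, had 3 members. All 3 held AP-1, as did 61.0% of all members. Of their 3 mets partners 0 were in the top 10% (percentiles 83.2, 86.9 and 89.3). Gata6 lies on chromosome 18, where 69.3% of the 166 members had a partner in the mets top 10%, against 79.2% of all members. Foxa2 had 2 members, Ehf 2, and Klf5 and Pdx1 1. Among pancreatic cancer drivers 4 of 10 had a member, with 3 at Rnf43, a ubiquitin ligase that dampens Wnt signaling, and 1 each at Brca2, Myc and Arid1a.

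Among matrix and junction genes, members made up 4.85% of the regions near integrins and laminins, 3.96% near epithelial junction and keratin genes and 4.92% near TGF-beta and EMT genes, beside the 3.90% of all protein-coding genes. Integrin and laminin genes had a member in 8 of 15 cases (53.3%), with 3 at Itgb6 (mets percentiles 95.2 to 96.9), 2 at Lamc1, and 1 at Itga5 and Itgb1. Epithelial junction and keratin genes had a member in 8 of 16, with Krt23, Ocln, Dsp and Cldn3 at the head, while Cldn3 shared its member with Cldn4, and Krt8 and Krt18 shared 1 as well. Among TGF-beta and EMT genes 7 of 20 had a member (35.0%). Cdh1, the E-cadherin gene, had 3 members, and Tgfb1 and Smad3 had 1 each. Markers of other cell types were counted as well. Hepatocyte, leukocyte, fibroblast and neuron markers each had 1 of 10 genes with a member (10.0%, 1.79 to 40.4), at Apoa1, Itgam, Acta2 and Syp, an interval that holds the 19.3% of all genes. Acinar markers had 3 of 10 (10.8 to 60.3%), at Cel, Cela3b and Bhlha15. Endothelial markers had 5 of 10 (95% interval 23.7 to 76.3%), at Kdr, Vwf, Cldn5, Erg and Cdh5, with 1 member and AP-1 at each. Of all members 61.0% held AP-1. Accessibility near a gene does not measure its expression, so these lists check the label only in part.

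Most members stood alone when near neighbors were joined, and no expected share was computed to set beside this. When members up to about 13 kb apart were joined, 495 of 4229, or 11.7%, fell into 239 clusters of 2 or more, and 3734 stood alone. The largest cluster, chr19:17263149-17287435 near Prune2 and Gcnt1, held 5 members in 24.3 kb, of which 4 had AP-1 and all 5 were in the mets top 10%. Clusters are named by a nearest protein-coding gene of their members, which can be far away. Of the clusters of 3, the 4 with the highest single score were named by March4 (5 AP-1 sites in its 3 members), Filip1l (0 sites), Klf5 (1 site) and Rabgap1l (1 site). The Klf5 cluster, chr14:99528866-99549480, lay more than 50 kb from the gene itself, at chr14:99298691-99315036. All 3 partners at March4, Filip1l and Klf5 were in the mets top 10%, and 2 of 3 at Rabgap1l.

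Under the same rule the human lists gave a lower AP-1 share and a higher CTCF share than the mouse members, at 61.0% (59.5 to 62.4) and 0.662% (0.458 to 0.955), with intervals that did not overlap. Of the 6026 strongest distal regions shared by HPAF-II control (Cas9) and HNF4G-KO, 53.3% (52.1 to 54.6) held AP-1, against 27.5% of all 118107 regions of that control list, and 1.41% (1.14 to 1.74) held CTCF, against 3.90%. FOXA stood at 11.9% (11.1 to 12.8), and its backwards sequence at 8.16%. RUNX was lower than in the mouse members, at 5.74% (5.18 to 6.36) against 7.66% (6.90 to 8.50). Started from the KPC mets list, the rule gave AP-1 in 62.5% (61.1 to 63.8) and CTCF in 1.11% (0.852 to 1.44) of regions. That CTCF interval overlapped the human one, so the CTCF difference depended on which KPC list started the rule. The human and mouse lists differ in species and build, and their depth is unknown. The part of each in these differences was not tested.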

How the data were processed

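ATAC-seq region lists of the KPC primary tumor and liver mets lines, and of HPAF-II control (Cas9) and HNF4G-KO, were used as deposited, 1 per group of 4 samples grouped by their titles. The authors gave each region a score whose scale is not stated, and the deposited score was used only to rank regions within its own list. The submitters' processing notes name Bowtie2 2.2.6, MACS2 2.1.1.20160309 and DiffBind, without saying how replicates were joined or reads shifted. More or deeper reads raise scores and widths, and depth is unknown.

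Regions were placed on mm10 (GENCODE vM21) or hg38 (GENCODE v44), the builds within which all regions lay, and coordinates are 1-based. Promoters lay within 1 kb of any start site, and exon or intron was read at the region center. The top 10% was a score at or above the 90th percentile. A percentile is the mean rank of a score in its list. The partner was the mets region with the longest overlap. Consensus sequences were searched on both strands in 400 bp at the center with Python 3.11.15 and pysam 0.24.0. CTCF, HNF1 and NFI were searched by their consensus. Other places in the genome were sought with BLAST+ 2.17.0 from bases outside soft-masked repeats, at 200 bp and 90% identity. Genes were counted where a member lay within 50 kb of a start site. Intervals are 95% Wilson intervals (scipy 1.17.1). The scripts were tested on simulated data.

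The members, gene lists and rules were chosen with earlier results of these data known. Genes were named by rule: the nearest protein-coding gene of the 10 highest scores, the 5 largest rises and falls and the highest-scoring member with AP-1, CTCF, RUNX, TEAD, FOXA or HNF4, the 10 genes with the most members, the 5 largest clusters, and up to 4 genes per list, ties going to the higher score. Other genes named with a list complete its count. No replicate reads were analysed here. Some genes that these rules select are not reported here.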

Additional observations from a re-analysis of the deposited data

How the results depend on the processing

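No paired analysis was possible because each group has 1 region list with no value per replicate. For the same reason no replicate could be left out. The member count of 4229 fell to 2125 with the top 5%, and to 2277 with members 600 to 900 bp wide, a range chosen after seeing the data. The mets top 10% share of 79.2% was 92.3% with the top 5%, 77.7% with regions narrower than 1000 bp, and 70.9% with percentiles among mets regions that overlap the tumor list. The AP-1 share of 61.0% was 63.1%, 62.8% and 63.9% with the top 5%, regions under 1000 bp and members 600 to 900 bp wide. In a 200 bp window it was 44.1% (lower distal regions 29.2%), in the whole region 69.2% (43.3%) and backwards 13.7%. The CTCF share of 0.662% was 0.331% in the 200 bp window, 1.30% in the whole region and 0 backwards. The share of genes near a member, 19.3%, was 4.82% at 10 kb, 31.7% at 100 kb and 10.2% with the nearest gene only. At least 1 of the other 13 consensus sequences was in 33.5% of members, and in 19.3% with the 200 bp window and 50.01% with the whole region. Members in clusters (joined at about 13 kb) fell from 11.7% to 1.16% with joining at 5 kb. The 13 single shares were all lower in the 200 bp window and higher in the whole region, which hold fewer and more bases. Leaving out members with a copy elsewhere, added after seeing the data, kept the count within 1.5 times and the other 3 values inside their intervals, as did 50% overlap, no width limit, 5 kb, protein-coding start sites and autosomes alone. Depth limits all of these, since it is unknown for each list.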

Other observations

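Chromosomes differed in how many members they held and in how these stood in mets. Members made up from 3.74% (2.87 to 4.85) of the list's regions on the X chromosome to 8.12% (7.32 to 9.01) on chromosome 3, and there were 0 among the 5 regions of the Y chromosome. The mets partner was in the top 10% for 67.1% (60.9 to 72.8) of the 237 members on chromosome 8 and 69.3% (61.9 to 75.8) of the 166 on chromosome 18, against 86.5% (82.6 to 89.6) on chromosome 1 and 87.1% (81.2 to 91.3) on chromosome 10. The median change in percentile from tumor to mets over all shared distal regions was -0.0741 on chromosome 8 and 1.33 on chromosome 18, and ran from 2.59 to 8.90 on the other autosomes. DNA copy number was not measured here. AP-1 was found in from 54.7% of members on the X chromosome to 73.7% of the 99 on chromosome 14.

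Words of 8 bases were also counted over the same windows without regard to the list of factors. Of 32895 words, the 6 with the largest excess in members over windows 2 kb upstream all held the AP-1 core, led by GTGACTCA in 26.0% of members and 1.54% of those windows. The word furthest below the lower shared distal regions was a run of A, at 7.78% of members and 11.3% of lower regions, and AGAGGGCA followed at 3.45% and 6.48%.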
